A study of Mus musculus with 13 samples.

Results

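The transcription factor NF-kB, its inhibitors and the genes that switch it off again were followed across eosinophils from 3 organs and 2 antibody treatments. The set held 10 genes of the 41743 in the deposited table. It was chosen by name, with earlier results of these data known: the subunits Nfkb1, Nfkb2, Rel, Rela and Relb, the inhibitors Nfkbia, Nfkbie and Nfkbiz, and the regulators Tnfaip3 and Traf1. All 10 had a value above 0 in at least 1 of the 13 libraries, and 9 passed the filters on low values. Traf1 did not. Eosinophils (Siglec-F+ CD11b+ cells, outside the Thy1 and MHC-II gates) were sorted by FACS from mice and sequenced as bulk RNA. Rag-KO + anti-CD3 had 2 thymus libraries, both from Rag2-/- mice taken 10 days after anti-CD3 antibody. Rag-KO + control had 2 thymus libraries taken 10 days after hamster IgG, of which library 1 was Rag2-/- and library 2 was Rag1-/-. In both groups the Rag deletion stops thymocytes at the double negative stage, and the antibody is used to drive them to the double positive stage. WT thymus, WT lung and WT spleen had 3 libraries each from untreated C57BL/6N mice. Thymus and lung were digested with Liberase TM and DNase I, whereas splenocytes were obtained by mashing, so that enzyme treatment and organ cannot be told apart. Neither the labels nor the study's text say whether libraries came from separate mice, so p-values measure the spread between these libraries, which may be technical.

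NF-kB is a dimer of Rel-family proteins that is held in the cytoplasm by IkB inhibitors. Signals from cytokine, Toll-like or antigen receptors lead to the degradation of IkB, and the dimer then enters the nucleus and starts transcription. Among its quickest targets are its own inhibitors, so that a short pulse of signalling shows as high transcript levels of Nfkbia (IkB alpha), Nfkbie (IkB epsilon), Nfkbiz (IkB zeta, a nuclear cofactor) and Tnfaip3 (A20, a ubiquitin-editing enzyme that ends signalling from receptors). Nfkb1 and Nfkb2 encode the precursors of p50 and p52, and Rela, Rel and Relb encode the subunits that carry activation domains. In eosinophils NF-kB is known for its part in survival and cytokine responses.

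The sequences before the transcription starts are shown for genes that differed many-fold between libraries (Nfkbia and Tnfaip3), for genes of intermediate range (Nfkbie and Rel) and for a subunit of smaller range (Rela). RefSeq promoters on GRCm38.p6 were found for 7 of the 10 members. Each sequence below gives the 250 bases before the start on the gene's own strand, and capitals mark matches to the 10-base kB consensus on either strand. Nfkbia lay on chromosome 12 (55489410 to 55492647 in the GENCODE annotation, minus strand) and its promoter at chr12:55492648-55492897. Tnfaip3 lay on chromosome 10, minus strand, with the promoter at chr10:19015411-19015660, a window that the GENCODE span of the gene (19000910 to 19015657) overlaps, Nfkbie on chromosome 17, plus strand, at chr17:45555450-45555699, and Rel on chromosome 11, minus strand, at chr11:23770970-23771219. Rela, a subunit gene without a match, lay on chromosome 19, plus strand, at chr19:5637291-5637540. In the GENCODE annotation of the same build the remaining genes were at chr3:135584655-135691547 (Nfkb1, minus strand), chr19:46304320-46312385 (Nfkb2, plus), chr7:19606217-19629438 (Relb, minus), chr16:55811375-55838899 (Nfkbiz, minus) and chr2:34941750-34961772 (Traf1, minus).
Nfkbia: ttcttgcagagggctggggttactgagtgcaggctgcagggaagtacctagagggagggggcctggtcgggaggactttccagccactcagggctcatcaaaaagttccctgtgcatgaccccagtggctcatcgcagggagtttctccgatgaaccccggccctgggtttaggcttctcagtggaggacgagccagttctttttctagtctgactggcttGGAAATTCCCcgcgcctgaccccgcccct
Tnfaip3: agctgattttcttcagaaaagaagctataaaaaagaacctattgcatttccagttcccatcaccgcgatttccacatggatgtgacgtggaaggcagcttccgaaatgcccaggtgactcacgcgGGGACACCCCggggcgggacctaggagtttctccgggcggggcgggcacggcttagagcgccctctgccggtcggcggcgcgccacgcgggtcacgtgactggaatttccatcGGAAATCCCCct
Nfkbie: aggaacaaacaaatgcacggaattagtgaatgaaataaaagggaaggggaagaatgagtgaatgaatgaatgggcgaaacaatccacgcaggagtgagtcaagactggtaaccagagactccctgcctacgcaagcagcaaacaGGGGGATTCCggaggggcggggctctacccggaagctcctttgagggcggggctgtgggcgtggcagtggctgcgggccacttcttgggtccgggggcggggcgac
Rel: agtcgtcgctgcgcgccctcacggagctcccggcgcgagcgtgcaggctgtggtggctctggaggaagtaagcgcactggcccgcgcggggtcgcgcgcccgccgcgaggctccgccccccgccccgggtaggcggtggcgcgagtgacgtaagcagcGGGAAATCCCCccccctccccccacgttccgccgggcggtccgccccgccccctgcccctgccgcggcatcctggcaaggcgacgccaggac
Rela: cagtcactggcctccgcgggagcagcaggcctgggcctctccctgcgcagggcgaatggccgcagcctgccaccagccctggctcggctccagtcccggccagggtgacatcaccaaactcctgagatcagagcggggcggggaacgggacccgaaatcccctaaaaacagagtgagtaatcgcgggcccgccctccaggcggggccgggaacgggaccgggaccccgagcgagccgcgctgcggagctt
In Nfkbia the match GGAAATTCCC began at position -29 from the start, and in Tnfaip3 the matches GGGACACCCC and GGAAATCCCC began at -125 and -12. The match in Nfkbie began at -106 and that in Rel at -92. Over all starts listed for a gene, a match to the consensus was present in 5 of the 7 members with a promoter (Nfkb2, Rel, Nfkbia, Nfkbie and Tnfaip3), and in 9.55% of all 27025 genes in the RefSeq table. Traf1 and Rela had no match. These windows span 300 bases, with 50 bases after the start that are not printed. A match is a run of letters and not a measured binding site, and no binding was measured here.

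The eosinophil identity of the libraries was checked on 11 markers. Siglecf had 73.4 to 466 RPKM and Ccr3 483 to 1185 RPKM over the 13 libraries. Il5ra had 7.98 to 100 RPKM, lowest in WT spleen library 3. Prg2 was called higher in WT thymus, at 757 RPKM, than in WT lung and WT spleen, at 44.3 and 93.5 RPKM (limma). Ear1 was called lower in WT thymus than in WT lung, at 6.43 and 54.7 RPKM. Of all genes 3.24% were called for thymus against lung and 2.29% for thymus against spleen. The libraries held 4765122 to 6431540 reads, and a gene without reads may still have had up to 3, which covers counting error alone. RPKM, the reads of a gene scaled by its length and by the library's total, was the unit throughout, and reads were recovered from it. Only the reads of Rel rest on an annotated length, so that those of the other members are known up to a factor. Rag1 had 0.02 RPKM in the Rag1-/- library, and Rag2 had 0.05 to 0.22 RPKM in the 3 Rag2-/- libraries, against 0.78 to 3.29 and 0.29 to 0.86 RPKM in WT thymus. Both genes were listed at 0 in each WT lung and WT spleen library. WT spleen library 3 stood apart, with 22.0% of its RPKM in mitochondrial transcripts, where the other 12 libraries had 1.60% to 6.02%, and it had the lowest level of each of the 9 members tested. Rag-KO + control library 2 had 340.3 RPKM of Epx and 3648 RPKM of Prg2, which encode granule proteins, against 0.08 to 7.64 and 32.9 to 925 RPKM in the others. Across all genes the third WT library of each organ deviated from its group in the same way. Rag-KO + control library 2 differed from library 1 in that direction (r of 0.28 to 0.56 with the third WT libraries). In a group of 2 libraries the deviations mirror each other, so that which library departs cannot be told. The labels name no batch.

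**Figure D1:**
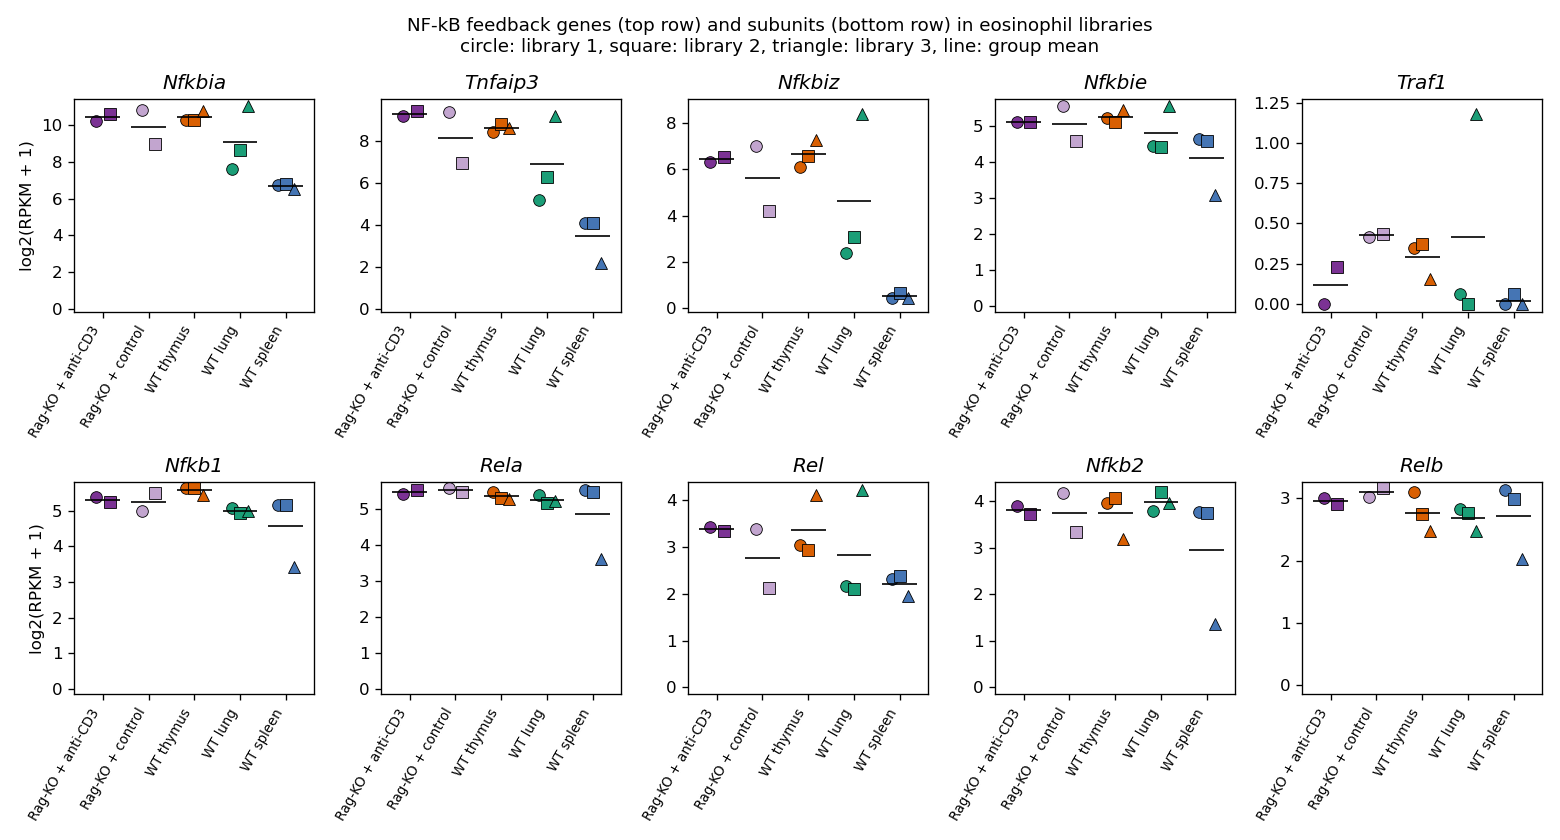
Level of each member in the 13 libraries, as log2(RPKM + 1) on the vertical axis, by group on the horizontal axis. Points are libraries and lines are group means. The feedback genes Nfkbia, Tnfaip3 and Nfkbiz sat lowest in all 3 WT spleen libraries, and WT lung library 3 and Rag-KO + control library 1 lay far above the other libraries of their groups, while Nfkb1, Rela and Relb varied less, with WT spleen library 3 lowest.

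Whether thymic eosinophils differed from those of a peripheral organ was first asked against spleen. Of the feedback transcripts Nfkbia, Tnfaip3 and Nfkbiz were many-fold higher in WT thymus and passed the test, and no subunit did. Nfkbia, the most abundant member, had 1234, 1243 and 1737 RPKM in WT thymus, against 105, 109 and 92.6 RPKM in WT spleen. The groups did not overlap, and each thymus library was more than 10-fold above each spleen library. The log2 fold change was 3.75 ± 0.70 (SE, n = 3 each), with an adjusted p of 0.0233 (limma). Tnfaip3 had 336, 444 and 392 RPKM in WT thymus, against 16.0, 15.9 and 3.52 RPKM in WT spleen, again without overlap. Its log2 fold change was 5.16 ± 0.90 (SE), with an adjusted p of 0.0179 in the same limma fit. Nfkbiz, which was nearly silent in spleen, had 66.4, 94.9 and 151 RPKM in WT thymus, against 0.37, 0.60 and 0.36 RPKM in WT spleen. The spleen values rest on 9, 15 and 7 reads, and the fitted log2 fold change of 6.11 ± 1.26 (SE, limma adjusted p of 0.0377) therefore depends on the pseudocount of 1. In bulk RNA, fewer cells that express a gene and less RNA per cell cannot be told apart.

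The remaining inhibitor and Traf1 were lower in abundance. Nfkbie had 36.3, 33.6 and 42.8 RPKM in WT thymus, against 24.0, 23.1 and 7.58 RPKM in WT spleen. The groups did not overlap, but the log2 difference of 1.15 ± 0.46 (SE) had an adjusted p of 0.359 (limma). Traf1, an adaptor of TNF receptors that is itself an NF-kB target, was at the edge of detection. It had 0 and 4 reads in Rag-KO + anti-CD3, 8 and 9 in Rag-KO + control, 6, 6 and 3 in WT thymus, 1, 0 and 27 in WT lung, and 0, 1 and 0 in WT spleen. The highest library was WT lung library 3, at 1.26 RPKM. Since 4 libraries were at 0, no fold is given.

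The 5 subunit genes differed less. Nfkb1 had 48.3, 48.5 and 42.3 RPKM in WT thymus, against 34.6, 34.6 and 9.78 RPKM in WT spleen, a log2 difference of 0.98 ± 0.43 (SE, limma adjusted p of 0.408). Rel, the subunit c-Rel that is itself induced upon activation, had 7.24, 6.59 and 16.1 RPKM in WT thymus, against 3.99, 4.20 and 2.87 RPKM in WT spleen, with a log2 difference of 1.14 ± 0.56 (SE, limma adjusted p of 0.472). Both groups of values were apart from each other, and in both genes WT library 3 lay farthest from its neighbours. Rela, which encodes the p65 subunit of the classical dimer, had 43.0, 38.4 and 37.9 RPKM in WT thymus, against 45.2, 42.8 and 11.1 RPKM in WT spleen. Its values overlapped, and outside spleen library 3 they lay within 34.6 to 47.1 RPKM over all 5 groups. Nfkb2 had 8.14 to 15.9 RPKM in WT thymus, against 1.59 to 12.6 RPKM in WT spleen, and Relb, the partner of p52 in the non-canonical pathway, had 4.53 to 7.54 RPKM in WT thymus, against 3.06 to 7.74 RPKM in WT spleen. The summed level of the 5 subunits was 120.8, 115 and 109 RPKM in WT thymus, against 104, 101 and 28.4 RPKM in WT spleen, while the sum of the 4 feedback genes was 1673, 1816 and 2323 RPKM in WT thymus, against 146, 149 and 104 RPKM in WT spleen.

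Between WT thymus and WT spleen 3 of the 9 members were thus called, all 3 higher. A call needed a log2 difference of over 1 together with an adjusted p below 0.05. Of all 9096 genes tested 2.29% were called and 1.70% were called higher. Groups did not overlap for 6 of the 9 members, all higher in thymus, against 16.4% of all genes. The median log2 difference was 1.14 over the 9 members and 0.25 over all genes. With upper-quartile scaling the median of all genes was 0.03 and 137 genes were called higher and 78 lower, against 155 and 53 as reported, with the same 3 members called. The calls rested on the WT libraries: with any single WT thymus library left out 0 of the 9 members were called (3.59 to 3.84 log2 for Nfkbia, adjusted p of 0.123 to 0.131), and without WT spleen library 1 or 2 only Tnfaip3 was. With no filter on low values 0 were called (adjusted p of 0.0568 for Tnfaip3 and 0.075 for Nfkbia), voom ended the call of Nfkbiz (adjusted p of 0.249), and Dunnett's comparison on RPKM, the kind of test the study used, ended all 3 (p of 0.0716 for Tnfaip3, 0.0751 for Nfkbia and 0.46 for Nfkbiz).

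**Figure D2:**
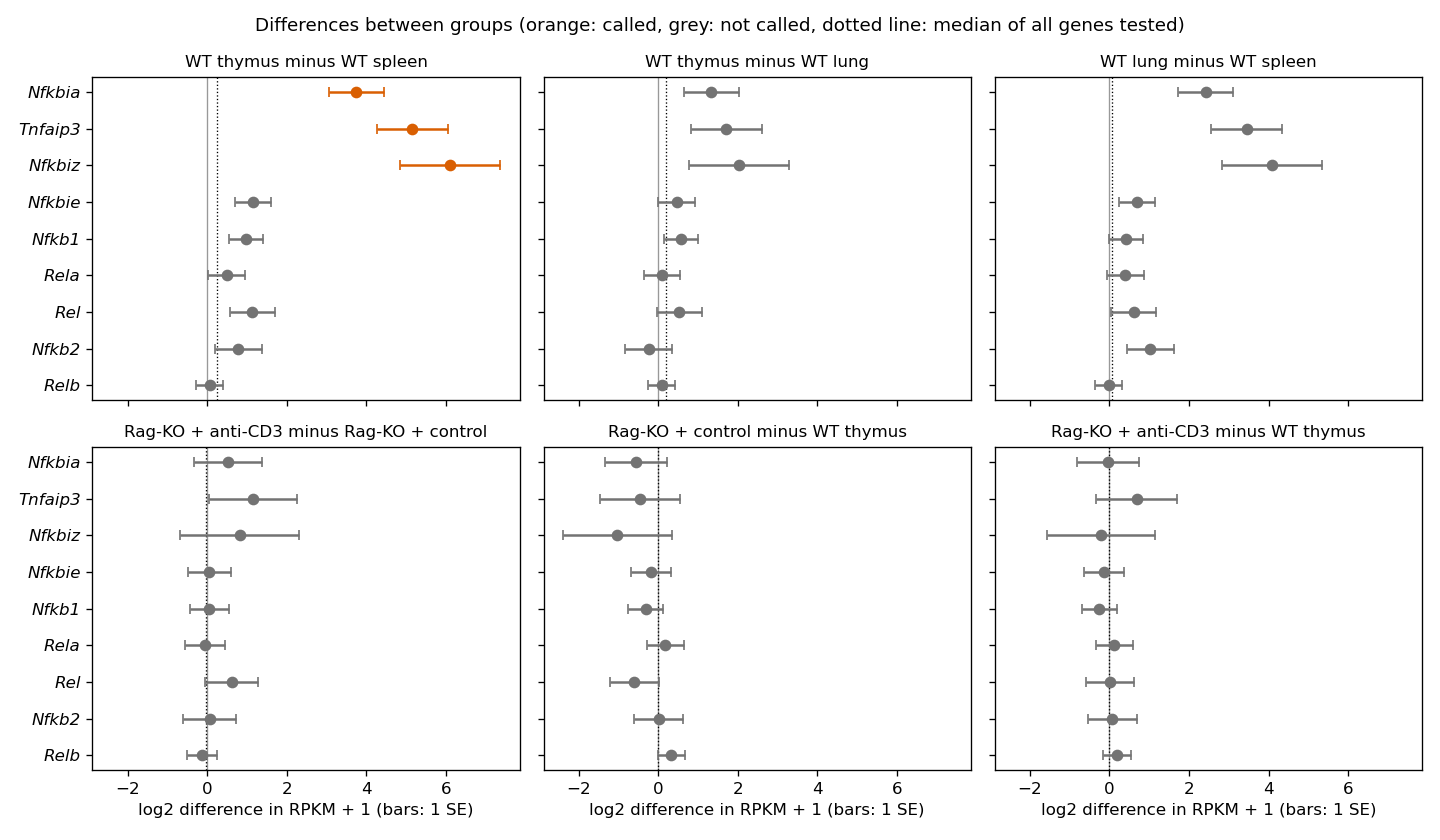
Log2 difference between groups, on the log2(RPKM + 1) scale, of the 9 members tested, for 6 comparisons. Points are fitted differences and bars are 1 SE. Orange marks the 3 calls, Nfkbia, Tnfaip3 and Nfkbiz in WT thymus against WT spleen, and the dotted line marks the median of all genes tested.

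No member passed the test between WT thymus and WT lung, and the lung libraries differed among themselves. Nfkbia had 1234, 1243 and 1737 RPKM in WT thymus, against 193, 405 and 2100.1 RPKM in WT lung. Tnfaip3 had 336, 444 and 392 RPKM in WT thymus, against 35.7, 77.2 and 586 RPKM in WT lung. Nfkbiz had 66.4, 94.9 and 151 RPKM in WT thymus, against 4.23, 7.53 and 331 RPKM in WT lung. In each of these genes lung libraries 1 and 2 lay below every thymus library and lung library 3 above them all. Library 3 exceeded the higher of the other 2 lung libraries 43.9-fold in Nfkbiz, 7.59-fold in Tnfaip3, 5.18-fold in Nfkbia, 4.98-fold in Rel and 2.21-fold in Nfkbie. For Nfkb1, Nfkb2, Rela and Relb the same ratio was 0.75 to 0.94. The 33.6 to 42.8 RPKM of Nfkbie in WT thymus likewise lay between 20.8 and 20.4 RPKM in lung libraries 1 and 2 and 45.9 RPKM in lung library 3. No member was called (0 of 9 by limma and by voom, 0 at an unadjusted p under 0.05), against 3.24% of all genes, 174 higher and 121 lower. Upper-quartile scaling turned that split to 145 higher and 171 lower, and a block on the library number raised the count from 295 to 462, with 0 members. Nfkb1 alone did not overlap, with 48.3, 48.5 and 42.3 RPKM in WT thymus, against 32.6, 29.6 and 30.7 RPKM in WT lung (22.9% of all genes were higher without overlap).

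The result against lung depended on library 3. Without WT lung library 3, Nfkbiz (3.90 log2, adjusted p of 0.00472 by limma) and Nfkbia (2.30 log2, adjusted p of 0.015) were called, and Tnfaip3 differed by 2.86 log2 (adjusted p of 0.0526). Without the third library of every WT organ, Nfkbiz, Tnfaip3 and Nfkbia were called, at 3.59, 2.85 and 2.14 log2. Among the third libraries alone the thymus minus lung differences were -1.13, -0.58 and -0.27 log2 for Nfkbiz, Tnfaip3 and Nfkbia, from a single library per organ and with no test. The difference against spleen kept its sign in both sets: 4.51 log2 from libraries 1 and 2 and 6.44 log2 from library 3 for Tnfaip3, 3.52 and 4.22 log2 for Nfkbia, and 5.76 and 6.81 log2 for Nfkbiz. The cause of the gap between lung libraries was not tested. Leaving out these libraries was chosen after seeing the data.

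WT lung against WT spleen followed from the same values. Tnfaip3 had 35.7, 77.2 and 586 RPKM in WT lung, against 16.0, 15.9 and 3.52 RPKM in WT spleen, a log2 difference of 3.45 ± 0.90 (SE, limma adjusted p of 0.26). Nfkbia differed by 2.41 ± 0.70 log2 (adjusted p of 0.374) and Nfkbiz by 4.09 ± 1.26 log2 (adjusted p of 0.455) in the same fit. All 3 lung libraries lay above all 3 spleen libraries in these genes and in Nfkb2, 4 of 9 members against 4.23% of all genes. None was called (0 of 9 by limma and by voom, 3 at an unadjusted p under 0.05), against 0.704% of all genes called. The median log2 difference was 0.69 over the members and 0.07 over all genes. Without the third library of every WT organ, Tnfaip3, Nfkbiz and Nfkbia were called, at 1.66, 2.17 and 1.38 log2. Without WT spleen library 3 and WT lung library 3, Nfkbiz alone was.

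The Rag-KO groups addressed whether the arrest of thymocyte development, and its release by antibody, was accompanied by a change in these genes. Tnfaip3 had 579 and 674 RPKM in Rag-KO + anti-CD3, against 658 and 121 RPKM in Rag-KO + control and 336, 444 and 392 RPKM in WT thymus. Nfkbia had 1193 and 1550.3 RPKM in Rag-KO + anti-CD3, against 1770.0 and 499 RPKM in Rag-KO + control and 1234 to 1737 RPKM in WT thymus. Nfkbiz had 79.1 and 91.1 RPKM in Rag-KO + anti-CD3, against 127 and 17.5 RPKM in Rag-KO + control and 66.4 to 151 RPKM in WT thymus. The 2 anti-CD3 libraries were close to each other, and control library 2 lay below both of them in all 3 genes. Control library 1 lay above them in Nfkbia and Nfkbiz and between them in Tnfaip3, so that the groups overlapped. Control library 1 exceeded control library 2 by 7.23-fold in Nfkbiz, 5.45-fold in Tnfaip3, 3.55-fold in Nfkbia, 2.82-fold in Rel and 1.99-fold in Nfkbie, the same 5 genes that stood out in WT lung library 3. The ratio was 1.89 in Nfkb2, 1.09 in Rela, 0.89 in Relb and 0.70 in Nfkb1.

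No member was called in any of the 3 comparisons with Rag-KO libraries (0 of 9 each by limma and by voom, and 0 at an unadjusted p under 0.05). All genes called were 0.133% for Rag-KO + anti-CD3 against Rag-KO + control, 1.09% for Rag-KO + control against WT thymus and 0.0819% for Rag-KO + anti-CD3 against WT thymus. Tnfaip3 differed by 1.14 ± 1.11 log2 (SE) between Rag-KO + anti-CD3 and Rag-KO + control, by -0.46 ± 1.01 between Rag-KO + control and WT thymus, and by 0.68 ± 1.01 between Rag-KO + anti-CD3 and WT thymus. These comparisons share libraries. In the last of them both anti-CD3 libraries lay above all 3 WT libraries (13.1% of all genes did so), and those of Nfkb1 below (16.2%). Relb was lower in both anti-CD3 libraries than in both control libraries (22.3%), and Rela was higher in both control libraries than in all WT thymus libraries (13.4%). Median log2 differences over the members were 0.06, -0.31 and 0.02 in that order, against -0.03, 0.00 and -0.01 over all genes. The directions rested on Rag-KO + control library 2, the only Rag1-/- library. Without it 6 of the 9 members changed sign between Rag-KO + anti-CD3 and Rag-KO + control, with -0.07 log2 for Tnfaip3, -0.38 for Nfkbia (0.53 with it), -0.57 for Nfkbiz (0.82 with it), -0.43 for Nfkbie and -0.01 for Rel. Between Rag-KO + control and WT thymus 5 of 9 changed sign, Tnfaip3 to 0.76 log2 among them. Genotype and the other features in which that library stood apart cannot be told apart. Over subunits, Rela had 41.5 and 44.9 RPKM in Rag-KO + anti-CD3, against 47.1 and 43.0 RPKM in Rag-KO + control, and Nfkb1 had 40.4 and 36.9 RPKM in Rag-KO + anti-CD3, against 31.0 and 44.2 RPKM in Rag-KO + control.

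Over all 5 groups Tnfaip3 (adjusted p of 0.0146, limma F test) and Nfkbia (0.0317) varied, 2 of 9 members against 4.52% of all genes. Nfkbiz had an adjusted p of 0.0509. Only Tnfaip3 remained with no filter, with upper-quartile scaling and without any of 9 of the 13 libraries taken singly, each WT thymus and WT spleen library, WT lung library 2 and each Rag-KO + anti-CD3 library. The order of mean levels of Tnfaip3 was Rag-KO + anti-CD3, WT thymus, Rag-KO + control, WT lung and WT spleen, at 626, 391, 389, 233 and 11.8 RPKM. Of these neighbours, Rag-KO + anti-CD3 did not overlap with WT thymus, nor WT lung with WT spleen, while the rest overlapped. For Nfkbia the order was WT thymus, Rag-KO + anti-CD3, Rag-KO + control, WT lung and WT spleen, at 1405, 1372, 1135, 899.6 and 102 RPKM, and WT spleen alone was separate from its neighbour. Nfkbiz had the highest mean in WT lung, at 114 ± 188 RPKM (SD, n = 3), which a single library set. WT thymus followed at 104 ± 42.9 RPKM, Rag-KO + anti-CD3 at 85.1 ± 8.45 RPKM (n = 2), Rag-KO + control at 72.2 ± 77.3 RPKM (n = 2) and WT spleen at 0.44 ± 0.14 RPKM.

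The range of the members over the 13 libraries did not follow their roles throughout. Nfkbiz spanned 933-fold, Tnfaip3 191-fold and Nfkbia 22.7-fold, and the SD of their log2 values lay at the percentiles 99.9, 99.8 and 99.0 of all genes tested. The feedback gene Nfkbie spanned 6.06-fold, at percentile 78.3, below the subunits Nfkb2, at 10.9-fold and percentile 84.1, and Rel, at 6.08-fold and percentile 86.0. The lowest value of each was that of WT spleen library 3. Outside that library Nfkb2 had 8.14 to 17.3 RPKM, Nfkbie 20.4 to 46.0 RPKM and Rel 3.27 to 17.4 RPKM. The fold range of Nfkb2 thus exceeded that of Nfkbie only with WT spleen library 3. Rela and Nfkb1 spanned 4.25-fold and 4.96-fold, and Relb 2.62-fold, at the percentiles 58.4, 65.5 and 19.1. Across the 13 libraries log2 levels of Nfkbia correlated with those of Nfkbiz at r = 0.99, of Tnfaip3 at 0.98, of Rel at 0.84 and of Nfkbie at 0.83, against 0.41 with Rela and 0.08 with Relb. Rela correlated with Nfkb1 at r = 0.89 and with Nfkb2 at 0.88. These values are descriptions over 13 libraries that share groups and library quality, and spleen library 3 was low in all members. The genes outside the set whose log2 levels followed the mean of the 9 members most closely, of 4139 ranked, were Nfkbid (r = 0.98), Pde4b (0.97), Trib1 (0.97), Mxd1 (0.97) and Nr4a1 (0.96). Nfkbid encodes a further nuclear IkB protein and had 144 to 313 RPKM in WT thymus, 28.1, 50.1 and 282 RPKM in WT lung and 1.79 to 12.1 RPKM in WT spleen. Nr4a1, an immediate early nuclear receptor, had 315 to 499 RPKM in WT thymus, 11.4, 26.3 and 803 RPKM in WT lung and 5.37 to 13.4 RPKM in WT spleen.

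Other genes of the pathway were counted for the WT organs. The lists used here and below were chosen with earlier results of these data known, so that their counts are descriptions. Of the kinases and adaptors that lead to IkB degradation, such as Ikbkb and Myd88, 0 of 25 tested were called in any of these 3 comparisons (limma, 2, 0 and 0 at an unadjusted p under 0.05 for thymus against spleen, thymus against lung and lung against spleen). Over all genes 2.29%, 3.24% and 0.704% were called in the same order, so that 0 of 25 was near that share. The median log2 difference of these kinases and adaptors between WT thymus and WT spleen was 0.26, as for all genes. Likewise 0 of 11 further inhibitors of the pathway, such as Cyld, Irak3 and Tollip, were called (limma, 3, 2 and 1 at an unadjusted p under 0.05). Tnfaip3 and the IkB proteins were not on that list. Of 21 receptors 11 passed the filter, and 1 was called lower in WT thymus and in WT lung than in WT spleen. It was Tnfrsf13c, the BAFF receptor of B cells, with 0.03 ± 0.05 RPKM in WT thymus, 0.06 ± 0.10 RPKM in WT lung and 1.28 ± 0.15 RPKM in WT spleen (SD, n = 3 each). Tnfrsf13c reached 1 RPKM in WT spleen libraries alone. It passed the filter only through the group where it was high, so that its calls give no support. Of 5 further IkB proteins Nfkbid was called higher in WT thymus than in WT spleen, at 4.87 ± 0.82 log2 (SE, limma adjusted p of 0.0154).

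Genes known as NF-kB targets were counted in the same way. Their list was also chosen with earlier results of these data known, so that its counts describe these libraries and cannot test an excess. In WT thymus against WT spleen 2.29% of all genes were called and 1.70% were called higher. Of 25 target genes tested, 6 were called higher and 1 lower, with a median log2 difference of 2.34. The called genes with the highest levels were the chemokine receptor-like Ccrl2, at 346 ± 108 RPKM in WT thymus and 12.3 ± 2.70 RPKM in WT spleen, and Ier3, a survival gene, at 170 ± 55.2 RPKM in WT thymus and 3.34 ± 0.85 RPKM in WT spleen (SD, n = 3 each). The chemokines Ccl4 and Ccl3 had 166 ± 63.6 and 167 ± 26.8 RPKM in WT thymus, against 5.34 ± 5.15 and 1.95 ± 0.85 RPKM in WT spleen. The adhesion molecule gene Vcam1, named after its values were seen, was the 1 called lower, at 1.33 ± 0.22 RPKM in WT thymus and 5.87 ± 2.50 RPKM in WT spleen. In WT lung against WT spleen, where 0.704% of all genes were called, 3 of the 25 were called higher, Cxcl2, Ccl3 and Ier3. Lung library 3 was the highest in each. Cxcl2 had 27.7, 104 and 745 RPKM in lung libraries 1, 2 and 3, Ccl3 16.7, 43.55 and 155 RPKM, and Ier3 20.5, 24.7 and 113 RPKM. All lung libraries lay above all WT spleen libraries in these genes. Vcam1 was the 1 called lower. Between WT thymus and WT lung 1 of the 25 was called, near the 3.24% of all genes. It was Bcl2a1a, an anti-apoptotic gene, at 179 ± 49.1 RPKM in WT thymus and 39.6 ± 32.7 RPKM in WT lung. Bcl2a1a has near-identical paralogs, between which reads may be divided. Between the Rag-KO groups and against WT thymus 0 of 27 targets were called (limma, 1, 3 and 0 at an unadjusted p under 0.05 for Rag-KO + anti-CD3 against Rag-KO + control, Rag-KO + control against WT thymus and Rag-KO + anti-CD3 against WT thymus). Of all genes 0.133%, 1.09% and 0.0819% were called in the same order. Summed over 29 target genes, WT lung library 3 had 5487 RPKM against 713 and 1007 RPKM in the other lung libraries, and Rag-KO + control had 3436 RPKM in library 1 and 1502 RPKM in library 2.

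**Figure D3:**
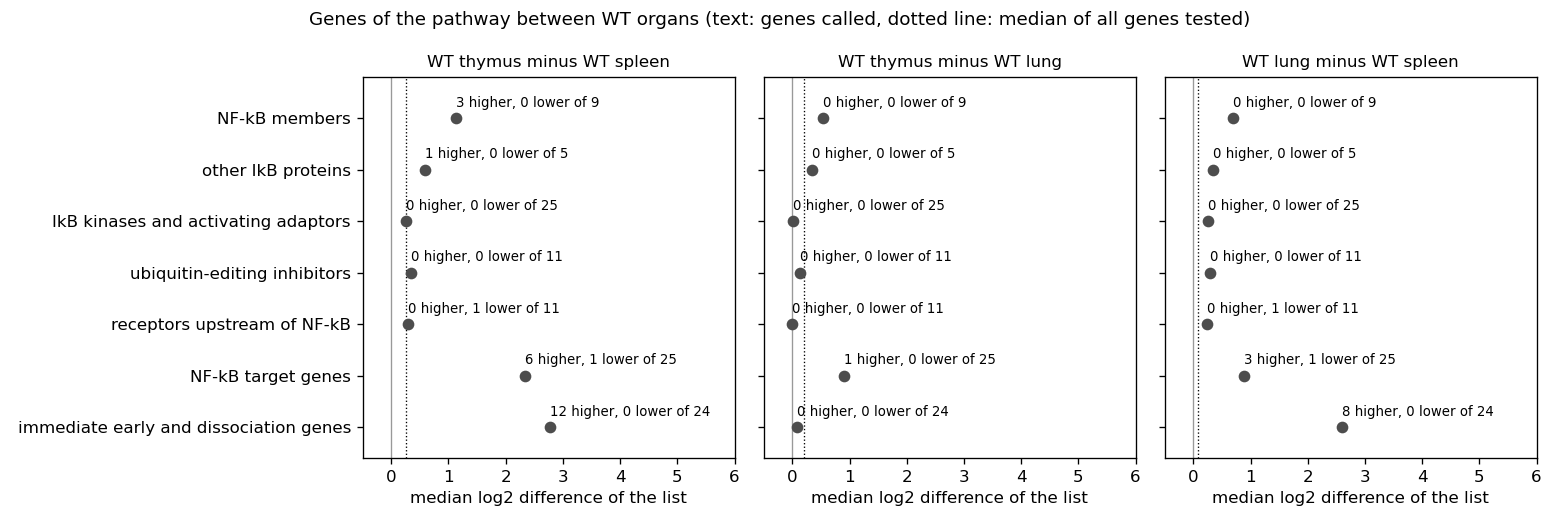
Median log2 difference, on the horizontal axis, of 7 gene lists of the pathway in 3 comparisons of WT organs. The text gives the genes called of those tested and the dotted line the median of all genes. The list labelled ubiquitin-editing inhibitors also holds other inhibitors, such as Irak3 and Tollip. That list, the kinases and adaptors, and the receptors stayed near the dotted line. Target genes had a median of 2.34 and immediate early genes one of 2.78 in WT thymus against WT spleen.

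Immediate early genes, which respond to stress and to tissue digestion, moved with the comparison against spleen. Their summed level over 25 genes was 12320 to 15770 RPKM in WT thymus, 13330 to 17580 RPKM in WT lung and 1772 to 1882 RPKM in WT spleen. Of 24 tested, 12 were called higher in WT thymus than in WT spleen and 8 in WT lung than in WT spleen, among them Fos, at 2370.0 ± 531 RPKM in WT thymus, 2966 ± 932 RPKM in WT lung and 32.1 ± 6.29 RPKM in WT spleen, and Dusp1, at 3393 ± 324, 3465 ± 1204 and 267 ± 84.3 RPKM in the same order. Of all genes 2.29% were called for thymus against spleen and 0.704% for lung against spleen. The sum is carried by Fos, Dusp1, Junb and Btg2, which made up 67.8% to 77.6% of it in the digested libraries. WT lung libraries 1 and 2 had immediate early sums of 13520 and 17580 RPKM, with feedback sums of 254 and 511 RPKM, while WT lung library 3 had 13330 RPKM with a feedback sum of 3063 RPKM. Rag-KO + control libraries 1 and 2 had immediate early sums of 17600 and 15270 RPKM, with feedback sums of 2600.0 and 661 RPKM. The other genes of the list moved differently from their sum. In WT lung library 3, 13 of the 25 were above both other lung libraries, 12 of them over 2-fold, and 9 were below both. Among those above, named after their values were seen, Nr4a1 had 803 RPKM in lung library 3 against 11.4 and 26.3 RPKM in libraries 1 and 2, and Atf3 had 127 RPKM against 2.57 and 7.45 RPKM. In Rag-KO + control library 1, 23 of the 25 were above library 2, 12 of them over 2-fold, with Nr4a1 at 412 RPKM in library 1 and 59.3 RPKM in library 2. The same counts were not made over all genes, so that they are descriptions alone. Part of the immediate early genes, such as Nr4a1, stood high in the same libraries as the feedback genes. The part of immediate early genes in the result was not tested. Digestion and organ cannot be told apart in the difference from spleen. Between Rag-KO + anti-CD3 and WT thymus 1 of the 24, Egr1, was called lower, at 37.0 RPKM in Rag-KO + anti-CD3 and 413.5 RPKM in WT thymus (limma adjusted p of 0.0469). Of all genes 0.0819% were called in that comparison.

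**Figure D4:**
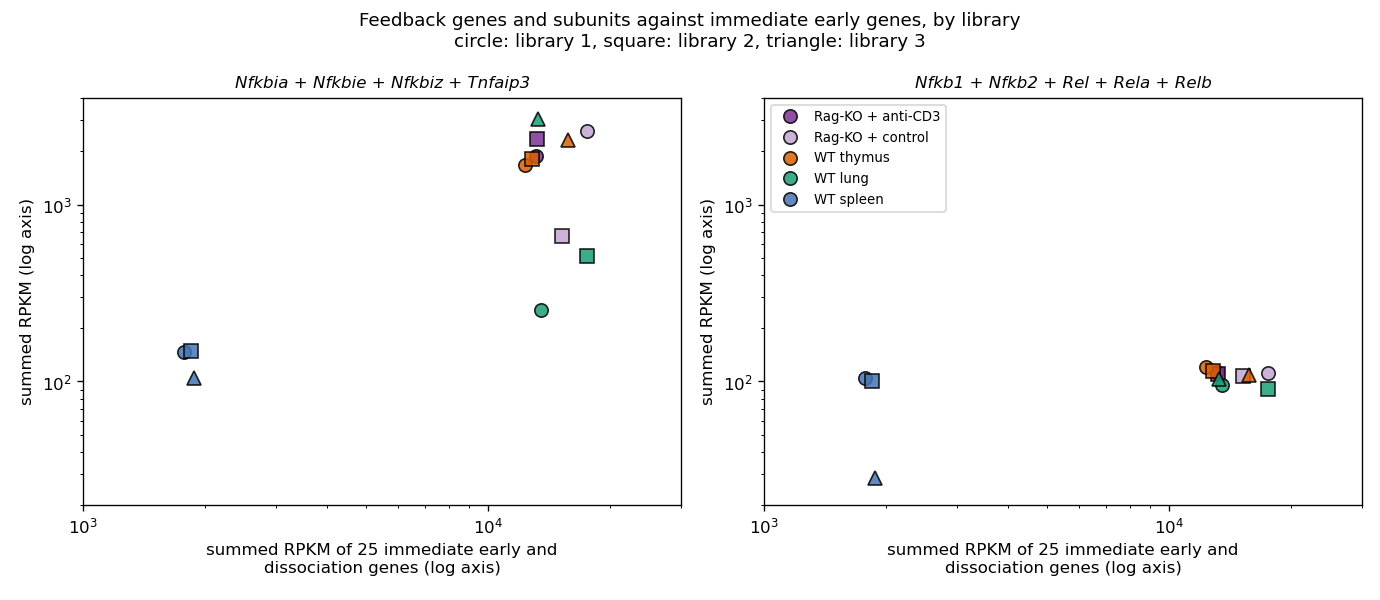
Summed RPKM of 4 feedback genes (left) and of 5 subunits (right), on the vertical axes, against the summed RPKM of 25 immediate early and dissociation genes, on log axes, for each of 13 libraries. The 10 libraries from digested thymus or lung had immediate early sums of 12320 to 17600 RPKM with feedback sums of 254 to 3063 RPKM and subunit sums of 90.6 to 120.8 RPKM, and the WT spleen libraries lay below them in both immediate early and feedback sums.

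Markers of other cell types were summed in each library. The summed level of 20 thymocyte and T cell markers was 34.8 to 40.4 RPKM in Rag-KO + anti-CD3, 3.29 to 7.94 RPKM in Rag-KO + control, 16.5 to 69.4 RPKM in WT thymus, 1.37 to 1.96 RPKM in WT lung and 1.53 to 4.10 RPKM in WT spleen. Only 8 of the 20 passed the filter for WT organs, and 7 were called higher in WT thymus than in WT spleen (1.70% of all genes). Among WT libraries Cd3e, Cd8b1 and Dntt reached 1 RPKM in WT thymus alone. They passed the filter only through the group where they were high, so that the count of 7 gives no support. Of 12 of these markers tested, 1 was higher in Rag-KO + anti-CD3 than in Rag-KO + control (0.133% of all genes called). Against WT thymus 2 were lower in Rag-KO + control (1.09% of all genes called). Cd8b1 was called in both, and it reached 1 RPKM only in WT thymus and Rag-KO + anti-CD3 libraries. Rag-KO + control library 1 and WT lung library 3, with the highest feedback sums, had 7.94 and 1.37 RPKM of these markers. The sum of 14 macrophage and monocyte markers was 507 to 625 RPKM in WT thymus, 658 to 793 RPKM in WT lung and 700.0 to 816 RPKM in WT spleen. In WT thymus against WT spleen 0 of 10 were called higher and 1 lower (2.29% of all genes called). The lower gene was Vcam1, which is also on the list of target genes, so that both counts hold the same result. In Rag-KO + control the macrophage and monocyte sum was 961 RPKM in library 1 and 3137 RPKM in library 2. The sum of 12 neutrophil markers was 899.6 to 3077 RPKM in WT thymus, 16740 to 20900 RPKM in WT lung and 12620 to 51310 RPKM in WT spleen. In WT thymus against WT spleen 1 of 10 was called higher and 2 lower (2.29% of all genes called). The higher gene was Cxcr2, at 21.1 ± 6.84 RPKM in WT thymus and 1.97 ± 0.96 RPKM in WT spleen (SD). Those called lower were Mmp9, at 29.7 ± 7.22 and 281 ± 153 RPKM in the same order, and Retnlg. Retnlg alone had 434 ± 145 RPKM in WT thymus, 17700 ± 2204 RPKM in WT lung and 17310 ± 6410 RPKM in WT spleen (SD). It carried most of the lung sum. In Rag-KO + control the neutrophil sums were 3861 and 8872 RPKM, and in Rag-KO + anti-CD3 4732 and 3472 RPKM. The sum of 12 B cell markers was 6.87 to 9.77 RPKM in WT thymus and 14.2 to 96.2 RPKM in WT spleen. B cell markers summed to 74.5 and 121 RPKM in Rag-KO + anti-CD3 (libraries 2 and 1), against 6.09 and 20.7 RPKM in Rag-KO + control (libraries 2 and 1). The sum of 14 endothelial and epithelial markers was 131 RPKM in WT lung library 3 and 61.6 and 69.8 RPKM in lung libraries 1 and 2, and 37.3 RPKM in Rag-KO + control library 1 and 8.87 RPKM in library 2. The sum of 10 dendritic cell markers was 89.4 RPKM in WT lung library 3 and 30.5 and 11.4 RPKM in lung libraries 1 and 2, and it was 353 and 507 RPKM in Rag-KO + anti-CD3, against 167 and 118 RPKM in Rag-KO + control. The dendritic cell list includes Itgax, which encodes CD11c, the surface marker that the study used for thymic eosinophils. In WT thymus Itgax had 228 ± 27.4 RPKM (SD), where the list summed to 234 to 292 RPKM. That sum can therefore not be read as dendritic cells alone. The part of other cell types in the results was not tested.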

How the data were processed

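Bulk RNA of sorted eosinophils was sequenced on an Ion Proton from SMART-seq v4 libraries. Per the labels and the study's methods, the authors mapped reads to mm10 and deposited RPKM values made with CLC Genomics Workbench, and mapping and counting settings are not given in the sources used here. RPKM is scaled by the total of each library alone, so that a few abundant genes can shift all others. Groups came from the labels. Members and lists were chosen with earlier results of these data known. Named genes were all members, up to 4 called genes of each further list by highest mean, and the 5 genes most correlated with the members.

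Values were tested as log2(RPKM + 1), on which scale fold changes of low genes are understated, in limma 3.58.1 under R 4.3.3. Its variance prior followed mean intensity, and p-values were adjusted by Benjamini-Hochberg over every gene tested. Genes needed an RPKM of at least 1 in 3 of the 9 WT libraries (9096 genes, for WT organs) or in 2 of the 13 libraries (9763 genes, for the others). The script was tested on simulated data. Reads were recovered from RPKM for all genes above 0, 5888 at their annotated length and 11179 at a length found from the values, within a tolerance of 0.001, and totals were 4765122 to 6431540 reads. In the WT organs, deviations from the group mean had r of 0.31 to 0.58 over 9 pairs of libraries with the same number. Over 18 pairs of different numbers r was -0.54 to 0.42. All negative values joined a library 3 with a library 1 or 2. Library 1 of an organ and library 2 of another had r of 0.26 to 0.42, so that pairing of these numbers was not shown. The numbers were still taken as pairs among WT organs in a fit with a replicate block. Alternatives were other pseudocounts, filters and scalings, the block, Dunnett's comparison, voom, and leaving out libraries. RefSeq sequences were searched with Python 3.11.15.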

Additional observations from a re-analysis of the deposited data

How the results depend on the processing

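The 3 calls in WT thymus against WT spleen held with upper-quartile scaling, quantile normalization, a pseudocount of 0.1 and a filter at 5 RPKM. With no filter 0 members were called, and 2 with a pseudocount of 5 or voom. Leaving out single libraries gave 0 to 3 calls there, 0 to 2 for WT thymus against WT lung, and 1 to 3 members varying among the 5 groups. The count among the 5 groups was 2 as reported, 1 with no filter or upper-quartile scaling, and 6 without libraries 3 of the WT organs and Rag-KO + control library 2, a set chosen after seeing the data. Without that set 3 members were called for WT thymus against WT lung and 3 for WT lung against WT spleen. Without WT spleen library 3 and WT lung library 3 these were 4 and 1. Without that set 6 of 9 members changed sign for Rag-KO + anti-CD3 against Rag-KO + control, among them Nfkbiz (to -0.57 log2), Nfkbia (to -0.38) and Tnfaip3 (to -0.07). For Rag-KO + control against WT thymus 5 changed sign, Nfkbia (to 0.52 log2), Nfkbiz (to 0.67), Tnfaip3 (to 0.77), Rel (to 0.40) and Nfkbie (to 0.39), and for Rag-KO + anti-CD3 against WT thymus 3 did, all within 0.21 log2 of 0. Without single libraries Nfkbiz ran over -0.57 to 2.21 log2 for Rag-KO + anti-CD3 against Rag-KO + control. On the RPKM scale, Dunnett's comparison of WT thymus with WT spleen gave p of 0.0716 for Tnfaip3, 0.0751 for Nfkbia and 0.46 for Nfkbiz.

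The replicate block gave the same 3 member calls in WT thymus against WT spleen and changed no other member call between WT organs. Rag-KO libraries share only a number with the WT libraries (r of -0.51 to -0.33 between Rag-KO + control library 2 and the WT libraries 2), so that the block has no basis there. With it 3 members varied among the 5 groups, and 39 and 219 genes were called for Rag-KO + anti-CD3 against Rag-KO + control and Rag-KO + control against WT thymus, with 0 members. Counts over all genes moved more. Over all settings they were 34 to 506 for WT thymus against WT spleen (208 as reported), 89 to 753 for WT thymus against WT lung (295), 12 to 182 for WT lung against WT spleen (64), 0 to 164 for Rag-KO + anti-CD3 against Rag-KO + control (13), 15 to 409 for Rag-KO + control against WT thymus (106) and 1 to 131 for Rag-KO + anti-CD3 against WT thymus (8). Quantile normalization gave 140 higher and 93 lower for WT thymus against WT spleen, 159 and 205 for WT thymus against WT lung, and 11 and 9 for Rag-KO + anti-CD3 against Rag-KO + control, where 5 and 8 were reported. Nfkbiz in spleen and Traf1 are limited by depth.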
